A study of Mus musculus with 12 samples.

Results

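Class IIa histone deacetylases and the Mef2 transcription factors that they repress were followed across 4 genotypes of mouse brain endothelium. The genes were taken by name from the deposited table of gene counts: Hdac4, Hdac5, Hdac7 and Hdac9 for the deacetylases, and Mef2a, Mef2c and Mef2d for the Mef2 factors, 7 of the 21638 genes in the table. All 7 passed the filter on low counts, with mean counts per library from 233 for Hdac5 to 4008 for Mef2a. Mef2b, the fourth Mef2 gene, was treated as a relative.

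The cells came from the cortex of adult mice and were sorted as endothelium, positive for CD31 and without CD41 or CD45, with 3 libraries in each of 4 groups. The groups were WT, Hdac2 ECKO (Hdac2lox/lox:Cdh5CreERT2, an endothelial deletion of the class I deacetylase gene Hdac2), Ezh2 ECKO (Ezh2lox/lox:Cdh5CreERT2, an endothelial deletion of the Polycomb methyltransferase gene Ezh2) and beta-catenin GOF (Ctnnb1lox/lox:Cdh5CreERT2, described by the labels as constitutive activation of beta-catenin). Cdh5CreERT2 is a Cre recombinase that tamoxifen switches on in endothelial cells throughout the body, not in brain vessels alone. The mutants received 5 doses of tamoxifen at 75 mg/kg and brains were taken after 2 months. The labels do not give the alleles of the WT mice, whether these mice received tamoxifen, or whether animals were pooled.

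Class IIa deacetylases have a long N-terminal part that binds Mef2 factors and a catalytic domain with weak activity of its own, so they repress Mef2 target genes largely by recruiting corepressors. Kinases such as the calcium/calmodulin-dependent kinases, protein kinase D and the salt-inducible kinases phosphorylate them, 14-3-3 proteins then hold them in the cytoplasm, and Mef2 is freed to activate its targets. In endothelium, Hdac7 is known for its part in vessel integrity, Mef2c for endothelial development, and the Mef2 factors for inducing Klf2 and Klf4 under blood flow. This control acts through phosphorylation and localisation, which transcript counts do not measure.

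The Mef2 factors share a DNA-binding MADS box at the N terminus. Its coding start is shown as an example of bases that the 3 genes share. The lines below give the first 30 codons of the longest coding sequence in GENCODE M21 (GRCm38), 5′ to 3′, and capitals mark the bases that Mef2a, Mef2c and Mef2d have in common, 63 of 90 positions (70%). The Mef2a stretch lies in exons at chr7:67316792-67316845 and chr7:67295543-67295578 (minus strand), that of Mef2c at chr13:83575677-83575730 and chr13:83592778-83592813 (plus strand), and that of Mef2d at chr3:88155809-88155862 and chr3:88156322-88156357 (plus strand).
Mef2a: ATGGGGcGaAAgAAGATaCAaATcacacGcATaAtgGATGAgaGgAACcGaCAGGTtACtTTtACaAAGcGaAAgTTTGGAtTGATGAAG
Mef2c: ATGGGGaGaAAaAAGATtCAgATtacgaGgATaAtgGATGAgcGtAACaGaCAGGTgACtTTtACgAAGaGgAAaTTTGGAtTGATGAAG
Mef2d: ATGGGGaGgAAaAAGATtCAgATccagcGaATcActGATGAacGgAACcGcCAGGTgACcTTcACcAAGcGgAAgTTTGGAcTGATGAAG
Even in this conserved stretch, single differing bases interrupt the shared runs. Over whole transcripts, the longest identical run was 13 to 28 bases between any 2 of the 3 Mef2 genes and 16 to 36 bases between any 2 of the 4 deacetylase genes, in each case inside the coding sequence of both.

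Mef2 factors bind an AT-rich site. The looser pattern CTANNNNTAG, which reads the same on both strands and leaves the 4 middle bases free, was searched in the RefSeq promoter windows of GRCm38.p6, each 300 bases long, from 250 before to 50 after an annotated start. All 7 genes had at least 1 window, 13 in all, and 3 windows held the pattern, those of Mef2a, Hdac5 and the second start of Hdac9. Of all 32851 windows in the genome, 3.69% held it, and of all 27025 genes 4.23%. The matches of Mef2a and Hdac5 had A or T at all 4 middle bases, as in the AT-rich Mef2 site, which 0.56% of all windows did. That of Hdac9 did not, so it matched the looser pattern alone. Stretches around the matches of Mef2a and Hdac5 are shown because these are the ones with the AT-rich form. Capitals mark the pattern.
Mef2a, chr7:67372841-67372960, minus strand: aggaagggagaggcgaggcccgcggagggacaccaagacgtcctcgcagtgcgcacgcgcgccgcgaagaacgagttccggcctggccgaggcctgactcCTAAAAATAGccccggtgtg
Hdac5, chr11:102230173-102230292, minus strand: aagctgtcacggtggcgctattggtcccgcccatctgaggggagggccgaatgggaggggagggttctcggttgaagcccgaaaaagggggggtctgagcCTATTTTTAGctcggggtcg
The first base of the pattern lay at position -2 from the annotated start for Mef2a and -20 for Hdac5. Binding was not measured, and the matches describe letters only.

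The genes lie on 7 chromosomes of GRCm38, with gene bodies from 29.7 kb for Mef2d to 869.5 kb for Hdac9. Hdac4 (ENSMUSG00000026313.16) spans chr1:91928779-92195699, Hdac5 (ENSMUSG00000008855.17) chr11:102194432-102230166, Hdac7 (ENSMUSG00000022475.19) chr15:97792664-97844502 and Hdac9 (ENSMUSG00000004698.10) chr12:34047580-34917095, all on the minus strand. Mef2a (ENSMUSG00000030557.17) spans chr7:67231163-67372858 on the minus strand, and on the plus strand Mef2c (ENSMUSG00000005583.16) spans chr13:83504034-83667080 and Mef2d (ENSMUSG00000001419.17) chr3:88142372-88172086. Exons of the lincRNA gene Gm26720 on the opposite strand cover 22.36% of the exon bases of Hdac4, and those of the antisense gene 1700113A16Rik 8.87% of Mef2d. The other overlaps were small: Lysmd4 with 2.06% of Mef2a, the microRNA gene Mir8101 with 1.26% of Hdac5 and Slc48a1 with 0.43% of Hdac7. Hdac9 and Mef2c overlapped no exon of another gene. The labels do not state whether counting used strand, so reads from opposite-strand partners cannot be told apart from those of Hdac4, Mef2d, Mef2a and Hdac7.

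Each library held 24781070 to 36109975 counts. The targeted genes did not separate their own mutants from WT. CPM below is a count scaled to a library total of 1000000 after TMM correction, and the threshold is an adjusted p of 0.05. Hdac2 averaged 129 ± 30.1 CPM over WT and 96.5 ± 15.1 CPM over Hdac2 ECKO (SD, n = 3 each). This difference of -0.42 (SE 0.24) on the log2 scale missed the threshold (adjusted p = 0.225 by edgeR). Over beta-catenin GOF, Hdac2 averaged 96.1 ± 10.1 CPM (-0.43 against WT, SE 0.24, adjusted p = 0.884 by edgeR). The lower mean was thus not particular to Hdac2 ECKO. Ezh2 averaged 6.75 ± 3.52 CPM over WT and 8.92 ± 3.36 CPM over the Ezh2 ECKO-labelled libraries, which is not lower (log2 fold change 0.40, SE 0.46, adjusted p = 0.615 by edgeR), so the label of that group is used as a name only. With sample quality weights in limma, Ezh2 was 1.28 higher there on the log2 scale and passed (adjusted p = 0.0428 by limma), in the direction opposite to the label. Ctnnb1 averaged 654 ± 138 CPM over WT and 583 ± 109 CPM over beta-catenin GOF (adjusted p = 0.962 by edgeR). Over Hdac2 ECKO, Ctnnb1 averaged 1157 ± 271 CPM, without overlap with WT (0.82, SE 0.29, adjusted p = 0.0711 by edgeR). Over the Ezh2 ECKO-labelled libraries it averaged 1101 ± 303 CPM (0.75, SE 0.29, adjusted p = 0.131 by edgeR). Counts per gene do not resolve single exons, so the loss or change of part of a transcript could pass unseen in all 3 mutants. Endothelial markers were high in every library, with Pecam1 at 204 to 364 CPM and Cdh5 at 102 to 285 CPM. The 10 endothelial markers summed to 18352 to 23517 CPM in WT and 16013 to 17274 in Hdac2 ECKO, all below WT. They summed to 18065 to 22289 in the Ezh2 ECKO-labelled libraries and 20268 to 23138 in beta-catenin GOF. Ly6c1 dominated this sum, at 12890 ± 2468 CPM over WT and 8128 ± 823 over Hdac2 ECKO. Ly6c1, Cldn5 and Pecam1 had lower means in Hdac2 ECKO than in WT. The means of Cdh5, Flt1, Kdr, Tek, Erg, Slc2a1 and Slco1a4 were higher there, as for Flt1 at 2050 ± 173 against 1293 ± 188 CPM. Cldn5, the gene of a tight junction protein, averaged 1490 ± 367 CPM over WT, 697 ± 363 over Hdac2 ECKO, 686 ± 426 over the Ezh2 ECKO-labelled libraries and 1626 ± 584 over beta-catenin GOF.

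Neurons and microglia are known for high Mef2c and Mef2a, so their markers were read in the same libraries. The microglial gene Cx3cr1 was at 0 in 8 of 12 libraries and reached at most 0.391 CPM, Tmem119 was at 0 in 10, and the neuronal gene Rbfox3 reached at most 0.211 CPM. The summed levels of the broader lists were nevertheless above 0. The 10 microglial markers summed to 71.1 to 98.0 CPM in WT, 40.5 to 62.1 in Hdac2 ECKO, 52.1 to 91.6 in the Ezh2 ECKO-labelled libraries and 58.1 to 83.5 in beta-catenin GOF. The 10 neuronal markers summed to 180 to 341, 89.2 to 192, 232 to 456 and 158 to 284 CPM in the same order. The 10 pericyte and smooth muscle markers summed to 66.9 to 123 CPM in WT, 129 to 314 in Hdac2 ECKO, 56.6 to 72.8 in the Ezh2 ECKO-labelled libraries and 121 to 378 in beta-catenin GOF. The 8 astrocyte markers summed to 24.3 to 35.8, 50.7 to 76.5, 44.1 to 79.8 and 37.6 to 54.3 CPM, and the 8 oligodendrocyte markers to 22.3 to 80.1, 14.8 to 31.5, 14.5 to 39.3 and 14.7 to 28.6 CPM. The 8 blood markers, mostly the haemoglobin genes Hbb-bs and Hba-a1, summed to 19620 to 33728 CPM in WT, 218 to 11756 in Hdac2 ECKO, 1468 to 3636 in the Ezh2 ECKO-labelled libraries and 290 to 20861 in beta-catenin GOF. The part of these lists in the results on the deacetylases and Mef2 factors was not tested. In bulk RNA, fewer cells of a type and less RNA per cell cannot be told apart.

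Among the 7 genes, Mef2a had the highest level per length in WT and Hdac4 the lowest. Mef2a stood at 7.00 ± 1.70 CPM per kilobase of exon (mean ± SD, n = 3), followed by Mef2c at 5.10 ± 0.75, Hdac7 at 3.95 ± 1.12 and Mef2d at 3.55 ± 0.44. A gap then led to Hdac9 at 0.81 ± 0.43, Hdac5 at 0.54 ± 0.12 and Hdac4 at 0.46 ± 0.15 CPM per kilobase. Hdac7 was therefore the only class IIa deacetylase at the level of the Mef2 factors. The step between Mef2d and Hdac9 exceeded the spread of the WT libraries, whereas the means of all other neighbours in this order lay within the sum of their SDs. Of the 12577 genes tested, 65.5% had a lower WT level per kilobase than Mef2a, 54.6% than Hdac7, 24.1% than Hdac9 and 16.6% than Hdac4. Mef2b, which lies outside the chosen 7, stood at 3.60 ± 0.60 CPM per kilobase.

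**Figure D1:**
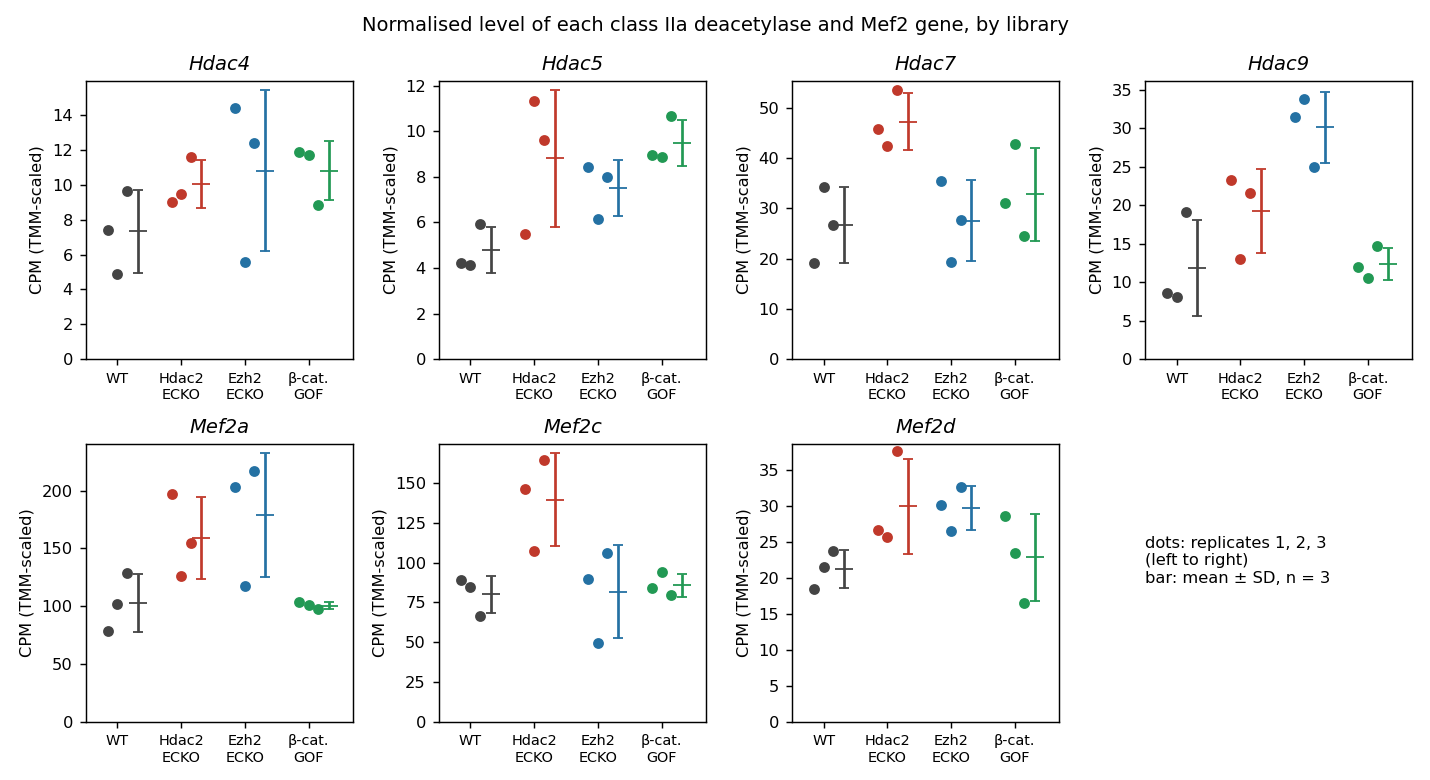
TMM-scaled CPM of each gene (vertical axes, from 0, a separate scale per gene) in the 12 libraries by group, with dots for replicates and bars for mean ± SD (n = 3). Hdac9 in the Ezh2 ECKO-labelled libraries sits between 24.99 and 33.8 CPM, above every other library, and Hdac7 and Mef2c in Hdac2 ECKO lie above all WT libraries.

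Hdac7 is the class IIa deacetylase best known from endothelium. It measured 19.1, 34.2 and 26.7 CPM in WT replicates 1 to 3, 45.7, 42.5 and 53.6 in Hdac2 ECKO, 35.5, 19.4 and 27.6 in the Ezh2 ECKO-labelled libraries, and 31.1, 42.7 and 24.5 in beta-catenin GOF. All 3 Hdac2 ECKO libraries lay above the 3 WT libraries, while both other mutants overlapped WT. The log2 fold change against WT was 0.82 (SE 0.31) in Hdac2 ECKO, short of the threshold (adjusted p = 0.0829 by edgeR). It was 0.04 (SE 0.30, adjusted p = 0.947 by edgeR) in the Ezh2 ECKO-labelled libraries and 0.30 (SE 0.30, adjusted p = 0.939 by edgeR) in beta-catenin GOF.

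Hdac9, a class IIa deacetylase that also exists in a short form without the catalytic domain, had the widest range of the 7 genes, 4.22-fold between its lowest and highest library. It measured 8.57, 8.01 and 19.1 CPM in WT, 23.2, 13.05 and 21.5 in Hdac2 ECKO, then 31.5, 33.8 and 24.99 in the Ezh2 ECKO-labelled libraries, and 12.0, 10.5 and 14.6 in beta-catenin GOF. The 3 Ezh2 ECKO-labelled libraries were the highest of all 12, and WT replicate 3 stood well above the other WT libraries. Against WT, the log2 fold change was 1.34 (SE 0.35) in the Ezh2 ECKO-labelled libraries, the largest of the 21 fitted for these genes against WT, and fell short of the threshold (adjusted p = 0.0663 by edgeR). Leaving out WT replicate 3 gave 1.86 (adjusted p = 0.0175 by edgeR), leaving out the second Ezh2 ECKO-labelled library 1.25 (adjusted p = 0.0358 by edgeR) and leaving out Hdac2 ECKO replicate 2 1.33 (adjusted p = 0.0465 by edgeR), each past the threshold, and the 9 other left-out libraries did not bring it past. Calls over all genes rose in those 3 fits too, to 1138, 2328 and 385 in that order, from 129 with all libraries. DESeq2 gave 1.34 with an adjusted p of 0.00971. In Hdac2 ECKO the log2 fold change was 0.70 (SE 0.35, adjusted p = 0.176 by edgeR), which became 1.22 (adjusted p = 0.0309 by edgeR) without WT replicate 3, and in beta-catenin GOF it was 0.06 (SE 0.35, adjusted p = 0.994 by edgeR). Over all genes, Hdac2 ECKO against WT had 1868 calls without WT replicate 3, against 1157 with all libraries.

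Hdac5, which shuttles out of the nucleus after phosphorylation by protein kinase D, measured 4.23, 4.15 and 5.94 CPM in WT and 8.97, 8.86 and 10.7 in beta-catenin GOF. It measured 8.46, 6.14 and 8.01 CPM in the Ezh2 ECKO-labelled libraries, and 5.49, 11.3 and 9.63 in Hdac2 ECKO. Every library of beta-catenin GOF and every Ezh2 ECKO-labelled library was above the WT range, and Hdac2 ECKO replicate 1 fell inside it. The log2 fold change was 0.99 (SE 0.35, adjusted p = 0.706 by edgeR) in beta-catenin GOF, 0.66 (SE 0.35, adjusted p = 0.248 by edgeR) in the Ezh2 ECKO-labelled libraries and 0.89 (SE 0.35, adjusted p = 0.096 by edgeR) in Hdac2 ECKO.

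Hdac4, a relative of Hdac5 that is known from cartilage and muscle, had values in all 3 mutants that overlapped WT. It measured 7.42, 4.91 and 9.68 CPM in WT, 9.01, 9.49 and 11.6 in Hdac2 ECKO, then 14.4, 5.59 and 12.4 in the Ezh2 ECKO-labelled libraries, and 11.9, 11.7 and 8.85 in beta-catenin GOF. The log2 fold changes against WT were 0.45 in Hdac2 ECKO, 0.56 in the Ezh2 ECKO-labelled libraries and 0.56 in beta-catenin GOF, each with an SE of 0.37, at edgeR adjusted p-values of 0.41, 0.364 and 0.903.

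Mef2a is a widely expressed factor and was the most abundant of the 7 genes. It measured 78.2, 102 and 128 CPM in WT, 197, 126 and 154 in Hdac2 ECKO, then 203, 118 and 217 in the Ezh2 ECKO-labelled libraries, and 103, 101 and 97.4 in beta-catenin GOF. One library each of Hdac2 ECKO and of the group labelled Ezh2 ECKO, replicate 2 in both, lay within the WT range, and all beta-catenin GOF libraries did. The log2 fold change was 0.80 (SE 0.28, adjusted p = 0.105 by edgeR) in the Ezh2 ECKO-labelled libraries, 0.63 (SE 0.28, adjusted p = 0.128 by edgeR) in Hdac2 ECKO and -0.03 (SE 0.28, adjusted p = 0.997 by edgeR) in beta-catenin GOF. Without the second Ezh2 ECKO-labelled library, the first of these became 1.03 and passed (adjusted p = 0.0163 by edgeR). Over all genes, that comparison then had 2328 calls, against 129 with all libraries.

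Mef2c, known from endothelial, cardiac and neural development, was higher in each Hdac2 ECKO library than in any WT library. It measured 88.9, 84.6 and 66.7 CPM in WT and 146, 107 and 165 in Hdac2 ECKO. It measured 89.6, 49.2 and 106 CPM in the Ezh2 ECKO-labelled libraries and 83.8, 93.8 and 79.7 in beta-catenin GOF, both overlapping WT. The log2 fold change was 0.80 (SE 0.28) in Hdac2 ECKO (adjusted p = 0.0724 by edgeR), 0.03 (SE 0.28, adjusted p = 0.964 by edgeR) in the Ezh2 ECKO-labelled libraries and 0.10 (SE 0.28, adjusted p = 0.98 by edgeR) in beta-catenin GOF. The spread is estimated over all 12 libraries: without the second Ezh2 ECKO-labelled library, the difference of Hdac2 ECKO from WT was the same for Mef2c at 0.80 and for Hdac7 at 0.82, and both passed (adjusted p = 0.0209 by edgeR and 0.0452). Over all genes, that fit had 2760 calls for Hdac2 ECKO against WT, and the fit with all libraries 1157.

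Mef2d, which is known for its alternative muscle exon, measured 18.5, 21.5 and 23.7 CPM in WT, 26.7, 25.8 and 37.7 in Hdac2 ECKO, then 30.2, 26.6 and 32.6 in the Ezh2 ECKO-labelled libraries, and 28.6, 23.5 and 16.6 in beta-catenin GOF. The libraries of Hdac2 ECKO and those labelled Ezh2 ECKO were all above WT, and those of beta-catenin GOF lay on both sides of it. The log2 fold changes were 0.50 (SE 0.27, adjusted p = 0.208 by edgeR), 0.49 (SE 0.27, adjusted p = 0.274 by edgeR) and 0.11 (SE 0.27, adjusted p = 0.978 by edgeR) in the same order of mutants. Mef2b measured 4.09, 5.41 and 5.66 CPM in WT and 2.99, 2.22 and 1.59 in Hdac2 ECKO, every mutant library below WT, with a log2 fold change of -1.16 (SE 0.44, adjusted p = 0.0899 by edgeR).

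In Hdac2 ECKO against WT, the fitted difference was above 0 for 7 of 7 genes, with a median log2 fold change of 0.70 against 0.10 over all 12577 genes. None of the 7 passed the adjusted threshold in edgeR, where 9.2% of all genes passed, and 4 of 7 had an unadjusted p under 0.05, against 33.1% of all genes. For 3 of 7 (Hdac7, Mef2c and Mef2d) the groups did not overlap and the mutant was higher, against 19.5% of all genes. DESeq2 also passed none, against 20.4% of all genes, and limma with sample quality weights passed all 7, against 42.7%. The 7 positive signs stand against 54% of all genes with a positive difference.

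In the Ezh2 ECKO-labelled libraries against WT, the fitted difference was again above 0 for 7 of 7 genes, with a median of 0.56 against 0.05 over all genes and 52.6% of all genes positive. These comparisons and those of the other mutants share the 3 WT libraries. None of the 7 passed in edgeR, where 1.03% of all genes did, and 2 of 7 had an unadjusted p under 0.05, against 24.7%. The groups did not overlap, with the mutant higher, for 3 of 7 (Hdac5, Hdac9 and Mef2d), against 11.1% of all genes. DESeq2 passed 1 (Hdac9), against 10.3% of all genes, and limma with sample quality weights passed 3 (Hdac4, Hdac9 and Mef2a), against 29.8%.

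In beta-catenin GOF against WT, 6 of 7 fitted differences were above 0 and that of Mef2a was below, with a median of 0.11 against 0.01 over all genes. No gene of the 7 passed in edgeR, and of all genes 0% did, at an unadjusted p under 0.05 for 1 of 7 (Hdac5) against 6.06%. The groups did not overlap for Hdac5 alone, against 6.83% of all genes with the mutant higher. DESeq2 and limma with sample quality weights passed none of the 7, against 0.263% and 0.207% of all genes.

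**Figure D2:**
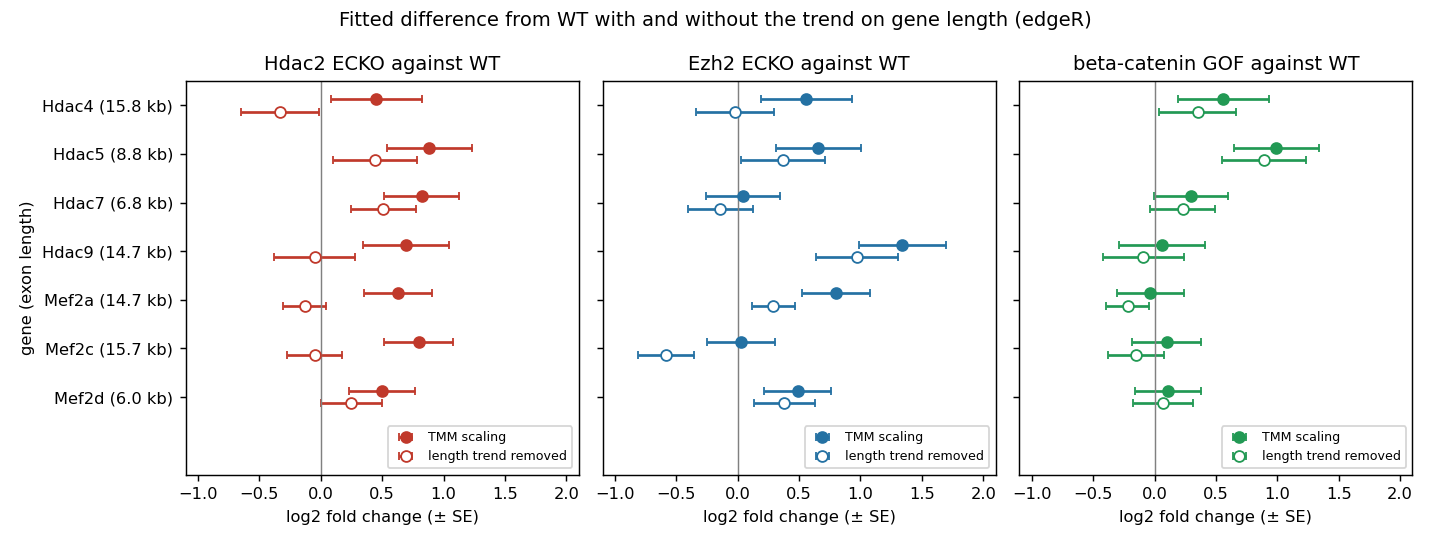
Fitted log2 fold change against WT (horizontal axis, ± SE) of the 7 genes, listed with exon length on the vertical axis, in each mutant. Filled points are the TMM-scaled fit and open points the fit after the trend on gene length was removed; the open points of Hdac4, Hdac9, Mef2a and Mef2c in Hdac2 ECKO lie below 0, between -0.33 and -0.05, while that of Hdac9 in the Ezh2 ECKO-labelled libraries stays at 0.97.

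Gene length moved with these differences. The 7 genes are long, with exon lengths from 6.0 kb for Mef2d to 15.8 kb for Hdac4, against a median of 4429 bases over the genes tested, and Hdac4, Hdac9, Mef2a and Mef2c were each longer than at least 97% of them. Among the longest 20% of all tested genes (2516 genes of 7663 bases or more), the median log2 fold change against WT was 0.66 in Hdac2 ECKO, 0.43 in the Ezh2 ECKO-labelled libraries and 0.13 in beta-catenin GOF, and 83.7%, 76.1% and 64.6% of the differences were above 0. Hdac4, Hdac5, Hdac9, Mef2a and Mef2c belong to these longest genes, and Hdac7 and Mef2d do not.

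When a smooth trend of count on gene length was removed within each library, the 7 genes no longer shared a sign. In Hdac2 ECKO, 3 of 7 were then above 0, namely Hdac5 at 0.44, Hdac7 at 0.51 and Mef2d at 0.25, and 4 below, namely Hdac4 at -0.33, Mef2a at -0.13, Hdac9 at -0.05 and Mef2c at -0.05, with a median of -0.05. In the Ezh2 ECKO-labelled libraries, Hdac9 kept the largest difference at 0.97 (SE 0.33, adjusted p = 0.105 by edgeR), Mef2d was at 0.38, Hdac5 at 0.37 and Mef2a at 0.29, while Hdac4 was at -0.02, Hdac7 at -0.14 and Mef2c at -0.58 (adjusted p = 0.146 by edgeR). In beta-catenin GOF, Hdac5 stayed at 0.89 and the others lay between -0.22 (Mef2a) and 0.35 (Hdac4). No gene of the 7 passed in this fit in any of the 3 comparisons.

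Against each other, the mutants did not differ past the threshold in any of the 7 genes. Hdac2 ECKO stood above the Ezh2 ECKO-labelled libraries, without overlap, in Hdac7 (log2 fold change 0.78, SE 0.31, adjusted p = 0.546 by edgeR) and Mef2c (0.77, SE 0.28, adjusted p = 0.541 by edgeR), and below them in Hdac9 (-0.64, SE 0.35, adjusted p = 0.636 by edgeR). None of the 7 passed in this comparison, where 0.0239% of all genes did in edgeR. At an unadjusted p under 0.05 there were 2 of 7 against 8.19%, groups did not overlap for 3 of 7 against 13.2%, and DESeq2 and limma with weights passed none, against 0.892% and 0.0875%. Beta-catenin GOF stood below Hdac2 ECKO without overlap in Mef2a (-0.67, adjusted p = 0.202 by edgeR) and Mef2c (-0.70, adjusted p = 0.188 by edgeR). None of the 7 passed there (0.0716% of all genes in edgeR), 2 of 7 had an unadjusted p under 0.05 against 21.1%, and groups did not overlap for 2 of 7 against 32% of all genes. DESeq2 passed none of these, against 6.09% of all genes, and limma with weights 3 (Hdac9, Mef2a and Mef2c), against 26.5%. Beta-catenin GOF stood below the Ezh2 ECKO-labelled libraries without overlap in Hdac9 (-1.28, SE 0.35, adjusted p = 0.245 by edgeR) and Mef2a (-0.84, SE 0.28, adjusted p = 0.293 by edgeR), and above them in Hdac5 (0.33). None of the 7 passed in edgeR (0.0636% of all genes did), 2 of 7 had an unadjusted p under 0.05 against 13.2%, and groups did not overlap for 3 of 7 against 16.7%. DESeq2 passed 1 of these (Hdac9), against 1.4% of all genes, and limma with weights 2 (Hdac9 and Mef2a), against 11.6%. Without the second Ezh2 ECKO-labelled library, Mef2a in this last comparison was at -1.06 and passed (adjusted p = 0.0353 by edgeR).

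Within each family, the make-up was set by Hdac7 among the deacetylases and by Mef2a among the Mef2 factors. Hdac7 made up 68.2 ± 9.84% of the summed CPM per kilobase of the 4 deacetylases in WT, 70.3 ± 0.81% in Hdac2 ECKO and 64.2 ± 7.62% in beta-catenin GOF (mean ± SD, n = 3 each). In the Ezh2 ECKO-labelled libraries its share was 52.4 ± 5.59%, with 46.1 to 56.6% in single libraries, below the WT range of 60.4 to 79.2%. Hdac9 made up 27.6 ± 8.13% there (22.8 to 37.0%), above the WT range of 8.53 to 19.9%. Hdac5 made up 9.59 ± 1.94% in WT and 14.9 ± 3.81% in beta-catenin GOF (11.5 to 19.0%), above the WT maximum of 11.0%. Hdac4 stayed between 4.85 and 10.7% over all 12 libraries.

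Mef2a made up 44.3 ± 6.86% of the Mef2 total in WT and 54.2 ± 2.45% in the Ezh2 ECKO-labelled libraries (51.5 to 56.3%), whose lowest value just overlapped the highest WT value. Mef2c made up 33.0 ± 7.61% in WT and 22.8 ± 2.51% in the Ezh2 ECKO-labelled libraries, with 20.07 to 25.03% there and at least 25.06% in each WT library. Mef2d made up 22.6 ± 0.75% in WT and stayed between 16.4 and 28.5% over all libraries. In Hdac2 ECKO the Mef2 shares were 43.8%, 35.7% and 20.4% for Mef2a, Mef2c and Mef2d, and in beta-catenin GOF 42.6%, 33.9% and 23.5%, within the SD of WT for Mef2a and Mef2c and outside the narrow SD of WT for Mef2d.

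**Figure D3:**
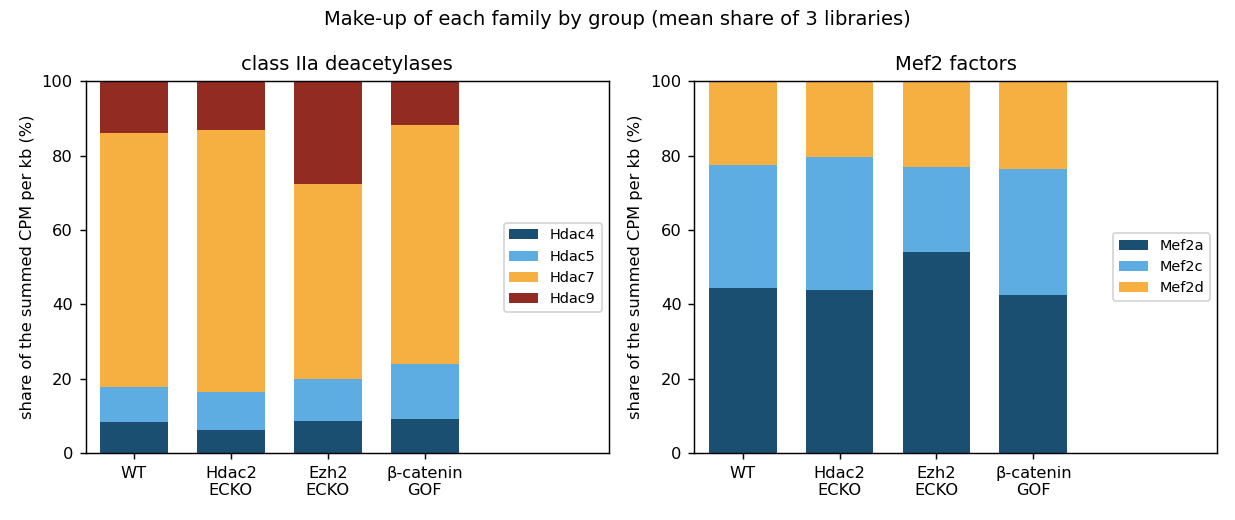
Stacked bars of the mean share (vertical axis, percent of the summed CPM per kilobase, 3 libraries per group) of each gene within the 4 class IIa deacetylases and within the 3 Mef2 factors. In the Ezh2 ECKO-labelled libraries, the Hdac9 part is 27.6% against 13.9% in WT, and the Mef2c part 22.8% against 33.0%.

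Because Mef2a and Mef2c, and likewise Hdac9 and Hdac4, have nearly equal exon lengths (14.7 and 15.7 kb, 14.7 and 15.8 kb), their ratios within a library depend little on gene length or on scaling. These ratios were chosen after the values had been seen and are given without a test. Mef2a to Mef2c was 0.88, 1.20 and 1.92 in WT, 1.35, 1.18 and 0.94 in Hdac2 ECKO, then 2.27, 2.39 and 2.04 in the Ezh2 ECKO-labelled libraries, and 1.23, 1.07 and 1.22 in beta-catenin GOF. The Ezh2 ECKO-labelled libraries had the 3 highest ratios, with a mean log2 difference from WT of 0.82, which ranged from 0.55 to 1.12 as single libraries were left out and was 0.87 with the length trend removed. Hdac9 to Hdac4 was 1.15, 1.63 and 1.97 in WT, 2.58, 1.37 and 1.85 in Hdac2 ECKO, then 2.18, 6.06 and 2.01 in the Ezh2 ECKO-labelled libraries, and 1.01, 0.90 and 1.65 in beta-catenin GOF. The mean log2 difference of the Ezh2 ECKO-labelled libraries from WT was 0.95, at 0.99 with the length trend removed, and 0.44 without their second library, whose ratio of 6.06 is far from the others.

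**Figure D4:**
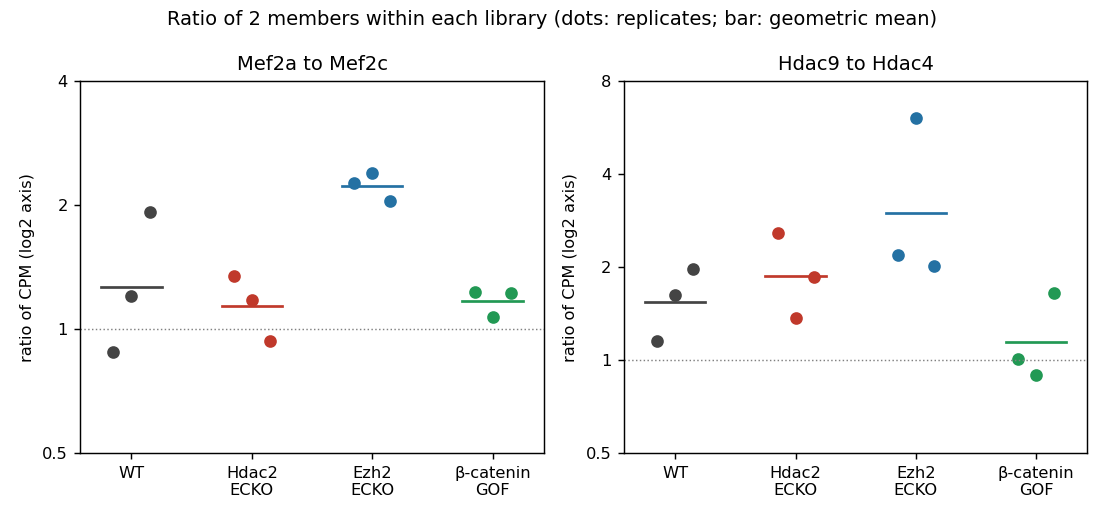
Ratio of Mef2a to Mef2c and of Hdac9 to Hdac4 within each library (vertical log2 axes), with dots for the 3 replicates of each group and bars for geometric means. All Ezh2 ECKO-labelled libraries have a Mef2a to Mef2c ratio of at least 2.04, above the highest WT value of 1.92, and 1 of them has an Hdac9 to Hdac4 ratio of 6.06.

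Other genes of the same pathway were counted in 5 lists. They held 57 tested genes. Against WT, edgeR called 0 of them in the Ezh2 ECKO-labelled libraries, where 18 of 57 had an unadjusted p under 0.05 (24.7% of all genes did), DESeq2 called 8 (10.3% of all genes) and limma with weights 17 (29.8% of all genes). EdgeR called 0 in beta-catenin GOF, where 7 had an unadjusted p under 0.05 (6.06% of all genes) and the other tools called 0. In Hdac2 ECKO, 25 of 57 had an unadjusted p under 0.05 (33.1% of all genes), DESeq2 called 17 (20.4% of all genes) and limma with weights 25 (42.7% of all genes). The calls below are those of edgeR in Hdac2 ECKO against WT, where 3.82% of all genes passed as higher and 5.38% as lower. Each of those calls was lost when WT replicate 1, WT replicate 2, Hdac2 ECKO replicate 3 or Hdac2 ECKO replicate 1 was left out. Over all genes, the count of calls was 0, 0, 0 and 1 in those 4 fits, in that order, against 1157 with all libraries. Of the 12 fits that each left out 1 library, a call held in 2 (Mapk14) to 8 (Ywhaz).

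Of 23 listed kinases and adaptors that drive nuclear export of class IIa deacetylases, 19 were tested, 4 fell and 1 rose. Those that fell included 3 genes of 14-3-3 proteins, which anchor phosphorylated deacetylases in the cytoplasm. Ywhaz averaged 659 ± 261 CPM over WT and 261 ± 33.4 CPM over Hdac2 ECKO (log2 fold change -1.34, SE 0.31, adjusted p = 0.0338 by edgeR), and Ywhae at 918 ± 311 and 386 ± 106 CPM (-1.25, SE 0.31, adjusted p = 0.0356 by edgeR). Ywhaq, named here because it completes the count, was at 1028 ± 20.98 and 536 ± 135 CPM (-0.94, SE 0.28, adjusted p = 0.0473 by edgeR). The other 14-3-3 genes of the list did not pass and did not share a direction. Ywhah was at -0.80 (adjusted p = 0.0537 by edgeR), Ywhab at -0.01 (adjusted p = 0.977 by edgeR) and Ywhag at 0.66 (adjusted p = 0.158 by edgeR). Camk1, a calcium/calmodulin-dependent kinase, was at 101 ± 22.6 CPM over WT and 31.1 ± 19.0 CPM over Hdac2 ECKO (-1.70, SE 0.43, adjusted p = 0.036 by edgeR). Sik2, a salt-inducible kinase, rose from 3.38 ± 1.04 to 8.51 ± 1.97 CPM (1.33, SE 0.37, adjusted p = 0.0407 by edgeR). In the fit with the length trend removed, Ywhaz (-1.29, adjusted p = 0.0325 by edgeR) and Camk1 (-1.91, adjusted p = 0.0391 by edgeR) still passed, while Ywhae (-0.81, adjusted p = 0.0745 by edgeR), Ywhaq (-0.65, adjusted p = 0.0887 by edgeR) and Sik2 (0.82, adjusted p = 0.161 by edgeR) did not. Sik2 also missed the threshold with no filter (adjusted p = 0.061 by edgeR) and with only the 2 groups compared (adjusted p = 0.0543 by edgeR), and Ywhaq with library size alone (adjusted p = 0.0713 by edgeR). The called genes had the same signs against WT in both other mutants, none past the threshold. In the Ezh2 ECKO-labelled libraries, Ywhaz was at -1.25, Ywhae at -1.12, Ywhaq at -0.48, Camk1 at -1.16 and Sik2 at 1.02. The values in beta-catenin GOF were -0.91, -0.52, -0.07, -0.48 and 1.00 in the same order of genes. The list median in Hdac2 ECKO was 0.36 against 0.10 over all genes, so its sign differs from that of most of its calls.

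The Erk5 and p38 arm holds kinases that phosphorylate Mef2 factors and raise their activity, and kinases that act upstream of these. It had 8 genes tested, of which 1 rose. Mapk14, the gene of p38-alpha, went from 19.9 ± 1.68 CPM in WT to 35.5 ± 4.02 CPM in Hdac2 ECKO (0.83, SE 0.25, adjusted p = 0.0472 by edgeR), a call that held in only 2 of 12 fits with 1 library left out. It was also lost with median-ratio scaling (adjusted p = 0.0548 by edgeR), no filter (adjusted p = 0.0927 by edgeR) and only the 2 groups compared (adjusted p = 0.0596 by edgeR). Of 15 corepressors and coactivators, 1 fell: Gps2, a subunit of the NCoR corepressor complex, was at 78.5 ± 26.2 CPM over WT and 26.5 ± 15.8 CPM over Hdac2 ECKO (-1.57, SE 0.41, adjusted p = 0.0387 by edgeR), at -1.13 with the length trend removed (adjusted p = 0.0728 by edgeR) and at -1.30 with library size alone (adjusted p = 0.0541 by edgeR). Against WT, Gps2 was at -1.21 in the Ezh2 ECKO-labelled libraries and -0.70 in beta-catenin GOF, and Mapk14 at 0.64 and 0.59, none past the threshold. The 4 other relatives tested were Mef2b and the deacetylase genes Hdac6, Hdac10 and Hdac11 of classes II and IV. None of them passed in edgeR in any mutant. In Hdac2 ECKO, 1 of the 4 (Mef2b) had an unadjusted p under 0.05, against 33.1% of all genes. There 1 of the 4 passed by DESeq2 and by limma with weights, against 20.4% and 42.7% of all genes. In both other mutants the number was 0. Those with the smallest p-values were Mef2b, given above, and Hdac10 in the Ezh2 ECKO-labelled libraries, with 3.73 ± 0.89 CPM against 5.61 ± 1.37 CPM in WT (-0.59, SE 0.39, adjusted p = 0.364 by edgeR).

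Of 12 listed Mef2 target genes, 11 were tested, and 10 of them did not pass in any mutant in edgeR. The other was Myocd, a coactivator known from smooth muscle, with 0 counts in each WT library and 87, 28 and 56 counts in Hdac2 ECKO replicates 1 to 3, or 2.05 ± 1.19 CPM. The Hdac2 ECKO mean was 20.1 times a floor of 3 counts per WT library. Since each mate of a pair appears to have been counted, 3 counts are fewer than 3 read pairs, so this value is not a lower bound. Myocd passed the filter on low counts only through the Hdac2 ECKO libraries, and no longer passed it without Hdac2 ECKO replicate 1, so its values are given as a description without a test. The pericyte and smooth muscle markers were at 129 to 314 CPM in Hdac2 ECKO against 66.9 to 123 CPM in WT. In beta-catenin GOF they were at 121 to 378 CPM, while Myocd was at only 0.0527 to 0.136 CPM there. The part of these markers in the Myocd values was not tested. Klf2 and Klf4, the flow-induced factors, fell outside the rule for naming and were added after their values were seen. Klf4 averaged 454 ± 17.3 CPM over WT, 818 ± 332 over Hdac2 ECKO (0.85, SE 0.34, adjusted p = 0.0991 by edgeR), 897 ± 166 over the Ezh2 ECKO-labelled libraries (0.98, SE 0.34, adjusted p = 0.104 by edgeR) and 462 ± 190 over beta-catenin GOF (0.02, SE 0.33, adjusted p = 0.998 by edgeR). Klf4 in Hdac2 ECKO overlapped WT, with its lowest library at 442 CPM against a WT maximum of 473 CPM. With 1 library left out, Klf4 passed in 1 of 12 fits in Hdac2 ECKO, without Hdac2 ECKO replicate 2 (1.10, adjusted p = 0.0281 by edgeR). In the Ezh2 ECKO-labelled libraries it also passed in 1 of 12, without their second library (1.13, adjusted p = 0.0399 by edgeR). Over all genes, those fits had 2220 and 2328 calls. With the length trend removed alone, Klf4 missed in both groups (adjusted p = 0.0619 and 0.0659 by edgeR). It also passed in both with the replicate block and the length trend removed (1.08, adjusted p = 0.0391 by edgeR, and 1.23, adjusted p = 0.0374 by edgeR) and with quality weights (1.06, adjusted p = 0.00286 by limma, and 1.10, adjusted p = 0.00899 by limma). In Hdac2 ECKO it passed with library size alone (1.08, adjusted p = 0.0381 by edgeR), and in the Ezh2 ECKO-labelled libraries with no filter (0.98, adjusted p = 0.0336 by edgeR). Klf2 averaged 630 ± 214, 521 ± 152, 740 ± 175 and 466 ± 170 CPM in the same order, each mutant within the spread of WT. The list median against WT was 0.48 in Hdac2 ECKO, 0.39 in the Ezh2 ECKO-labelled libraries and -0.17 in beta-catenin GOF, against 0.10, 0.05 and 0.01 over all genes.

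Across the 12 libraries, the 7 genes did not move as 1 block. Pearson's r of log2(CPM + 1) over the 21 pairs ran from -0.04 (Hdac9 with Mef2c) to 0.78 (Hdac7 with Mef2c), with a median of 0.43, and Hdac9 with Mef2a stood at 0.76. Within groups, after group means were subtracted, r ran from -0.24 to 0.63. The tested genes with the highest r to each of the 7 were Sgpl1 (0.91) and Ptprd (0.89) for Hdac4, Fads1 (0.88) and Rab43 (0.86) for Hdac5, Phactr1 (0.92) and Utp20 (0.91) for Hdac7, and Cetn2 (0.95) and Sf3b6 (0.95) for Hdac9. For the Mef2 factors they were Dgkh (0.98) and Prex2 (0.97) for Mef2a, Pcdh17 (0.94) and Clcn7 (0.94) for Mef2c, and Efnb2 (0.95) and Rassf3 (0.94) for Mef2d. None of the 7 was among the nearest genes of another. Dgkh and Prex2 have exon lengths of 17.0 and 16.6 kb, near the 14.7 kb of Mef2a, whereas Cetn2 and Sf3b6, at 1.6 and 2.9 kb, are far shorter than Hdac9. These values describe the same 12 libraries, which share depth, scaling and the trend on gene length, and no p-value is attached to them.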

How the data were processed

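RNA of sorted cells was made into libraries with the SMART-Seq v4 PLUS kit and sequenced in pairs, per the labels' protocols. The submitters' processing notes name FastQC, cutadapt, STAR, featureCounts and DESeq2 with the mouse build mm10, without roles or order. The deposited table is called normalized, but its values are whole-number counts: totals differ between libraries, and 79.5% to 84% of values from 10 to 50 are even, a pattern that counting each mate produces. They were therefore tested as counts. Gene positions matched GENCODE M21 (GRCm38) for 99.1% of 21638 genes, and exon length per gene comes from the deposited table, which for the 7 genes equals the GENCODE exon union.

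Tests used edgeR's quasi-likelihood method (glmQLFTest, edgeR 4.0.16, R 4.3.3) with TMM scaling, 1 model over 12 libraries, genes whose mean count was 10 or more, and Benjamini-Hochberg adjustment over the 12577 genes in each of 6 contrasts at 0.05. The scripts were tested on simulated data. Alternatives were median-ratio scaling, library size alone, no filter, a stricter minimum of 50, a replicate block, removal of a loess trend (span 0.5) on log length, both together, only the 2 groups compared, sample quality weights (limma 3.58.1), DESeq2 1.42.0 and leaving out each library. Shares called by DESeq2 are of the 7357 to 16711 genes to which it gave an adjusted p. The ratio alternatives were added after the data had been seen.

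The members and lists were chosen with earlier results of these data known. Named were the 7 genes, the 3 targeted genes, up to 4 genes per list by p (or the 2 of smallest p), the 2 genes most like each member, overlapping genes and defining markers. The labels do not say that replicates came from separate animals, so p-values measure only the spread between these samples. Replicates were separate libraries (chi-square of 65.2 or more per degree of freedom). A floor of 3 counts is 0.0791 to 0.118 CPM per library. The reads carry no molecular identifiers, so floors cover counting error only. Protein sequences were not used here.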

Additional observations from a re-analysis of the deposited data

How the results depend on the processing

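The number of the 7 genes past the threshold, 0 in every comparison, moved in some fits. For Hdac2 ECKO against WT it was 2 with library size alone and 7 with quality weights, and 0 to 2 with single libraries left out. For the Ezh2 ECKO-labelled libraries against WT it was 1 with no filter, the replicate block or DESeq2 and 3 with quality weights, and 0 to 2 with libraries left out. For beta-catenin GOF it was 3 against Hdac2 ECKO with quality weights, and against the Ezh2 ECKO-labelled libraries 1 with no filter or DESeq2, 2 with quality weights and 0 to 1 with libraries left out. The other comparisons stayed at 0 in every alternative. Quality weights ran from 0.26 for the second Ezh2 ECKO-labelled library to 3.13 for Hdac2 ECKO replicate 3. The causes were not tested.

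Signs turned with the length trend removed, alone and together with the replicate block. In Hdac2 ECKO against WT, Hdac4 gave -0.33 and -0.30, Hdac9 -0.05 and -0.02, Mef2a -0.13 and -0.13, and Mef2c -0.05 and -0.04. In the Ezh2 ECKO-labelled libraries against WT, Hdac4 gave -0.02 and -0.02, Hdac7 -0.14 and -0.12, and Mef2c -0.58 and -0.57. In beta-catenin GOF against WT, Hdac9 gave -0.09 and -0.08 and Mef2c -0.15 and -0.14. In Hdac2 ECKO set against the Ezh2 ECKO-labelled libraries, Mef2d gave -0.12 and -0.13. Klf2 in Hdac2 ECKO against WT gave 0.30 and 0.33. Other signs that turned belonged to differences near 0. Mef2c in the Ezh2 ECKO-labelled libraries against WT was -0.02 with the replicate block, and Mef2a in beta-catenin GOF against WT was 0.03 with library size alone and 0.02 with quality weights, while Klf4 there was -0.03 with the block and -0.06 with quality weights. In Hdac2 ECKO set against the Ezh2 ECKO-labelled libraries, library size alone gave 0.07 for Hdac4 and 0.01 for Mef2a, and median-ratio scaling and DESeq2 gave -0.03 and -0.03 for Mef2d. In beta-catenin GOF, library size alone gave -0.09 for Hdac4 and -0.10 for Hdac5 against Hdac2 ECKO, and -0.01 for Hdac4 against the Ezh2 ECKO-labelled libraries, where quality weights gave -0.18 for Hdac4 and -0.06 for Mef2c.

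With single libraries left out, ranges that crossed 0 were, in the Ezh2 ECKO-labelled libraries against WT, -0.21 to 0.26 for Hdac7, -0.22 to 0.29 for Mef2c and -0.01 to 0.48 for Klf2. In beta-catenin GOF against WT they were -0.16 to 0.58 for Hdac9, -0.20 to 0.16 for Mef2a, -0.02 to 0.18 for Mef2c, -0.08 to 0.30 for Mef2d, -0.37 to 0.20 for Klf4 and -0.31 to 0.02 for Ctnnb1. In Hdac2 ECKO set against the Ezh2 ECKO-labelled libraries they were -0.42 to 0.15 for Hdac4, -0.03 to 0.48 for Hdac5 and -0.19 to 0.08 for Mef2d. In beta-catenin GOF they were -0.14 to 0.37 for Hdac5 against Hdac2 ECKO, and -0.31 to 0.28 for Hdac4 and -0.19 to 0.31 for Mef2c against the Ezh2 ECKO-labelled libraries.

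Counts over all genes moved as well. For Hdac2 ECKO against WT (1157) they were 1819 with library size alone, 2279 with no filter, 1832 with the block, 674 with the length trend removed, 5374 with quality weights and 2608 with DESeq2. For the Ezh2 ECKO-labelled libraries against WT (129) they were 76 with median-ratio scaling, 30 with library size alone, 1367, 219 at a mean count of 50, 536 with the block, 674 with block and length, 17 with 2 groups only, 3743 and 1364. For beta-catenin GOF against WT (0) they were 157, 26 and 44 with no filter, weights and DESeq2. For Hdac2 ECKO set against the Ezh2 ECKO-labelled libraries (3) they were 199 with no filter, 1 with block and length, 11 with weights and 121 with DESeq2. For beta-catenin GOF they were, against Hdac2 ECKO (9), 4 with library size alone, 978 with no filter, 5 with length, 1 with block and length, 3339 with weights and 448 with DESeq2, and against the Ezh2 ECKO-labelled libraries (8) 359 with no filter, 1462 with weights, 195 with DESeq2 and 13 or 14 with library size, block or length. With single libraries left out, the ranges in the order of the report were 0 to 2760, 2 to 2328, 0 to 4, 1 to 4, 0 to 642 and 1 to 731. Library size alone shifted the median of all genes in Hdac2 ECKO against WT from 0.10 to 0.34 and its calls from 480 higher and 677 lower to 1462 and 357, and those of the Ezh2 ECKO-labelled libraries from 43 and 86 to 17 and 13. The correlation of same-numbered deviations ran from -0.14 to 0.27, highest for replicate 2 of Hdac2 ECKO and of the Ezh2 ECKO-labelled libraries. With 3 libraries per group, this does not decide whether the replicate numbers pair the libraries. Under the block, Hdac9 in the Ezh2 ECKO-labelled libraries passed (1.44, adjusted p = 0.0372 by edgeR).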
